A study of Homo sapiens with 12 samples.

Results

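The lowest dose of a crystal-forming purine was set against medium alone in a human kidney tubule cell line, using 6 of the 12 libraries of the series. HK-2 cells, a proximal tubule epithelial line immortalised with papillomavirus E6/E7 genes, were kept for 72 h with 60 ug/ml 2,8-dihydroxyadenine (DHA) suspended in medium (3 libraries), or in medium alone, here called control (3 libraries). All cultures had minimal essential medium with bovine serum, sodium pyruvate, penicillin and streptomycin, and no carrier for DHA is named, so a difference from control includes any effect of one. The other 6 libraries, from 120 and 240 ug/ml, lend their spread to the fit and are named only where a dose order is described. Members were chosen by the library names in the deposited table, and values were summed per gene and also kept per transcript.

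DHA is a poorly soluble breakdown product of adenine. It is made by xanthine dehydrogenase when adenine phosphoribosyltransferase (APRT) does not salvage adenine, and it then crystallises in the tubule lumen and injures the epithelium. Tubule cells that meet crystals are known to switch on growth factor and early response genes, to change their junctions and matrix, and to bind crystals through surface molecules such as CD44 and hyaluronan. In growing cells the ERK kinase pathway raises cyclin D1 and its own inhibitors, while ribosomal protein mRNAs form a separate group that is largely controlled at translation.

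Values are the deposited signal, a normalized abundance of unknown depth written to 1 decimal, given in library order 1, 2 and 3. The 3 DHA libraries summed to 1060084, 1052413 and 984048 and the 3 control libraries to 1228979, 1200782 and 1143850. Fold changes are log2 differences of DHA over control on the value + 1 scale, with the standard error (SE) of a limma fit and Benjamini-Hochberg adjusted p-values over 16774 genes, called at 0.05. A number alone in parentheses after a gene is its log2 fold change. The sources do not say that libraries came from separate cultures, and the p-values therefore reflect library-to-library spread alone. In these bulk libraries fewer cells expressing a gene and less of its RNA per cell cannot be told apart.

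The label of the cells was checked against their markers. The kidney lineage factor PAX8 had 296, 269 and 249.8 in DHA libraries and 237, 222 and 232 in control libraries, and GGT1, a brush border enzyme, had 202, 197 and 149 in DHA and 181, 191 and 155 in control libraries. KRT19, an epithelial keratin, had 391, 323 and 383 in DHA libraries and 294, 307 and 296 in control libraries. KRT8, another keratin, had 21.7, 23 and 14.1 in DHA and 30.6, 27.9 and 16.9 in control libraries. CDH1 had 0.9, 1.2 and 1.2 in DHA and 1.3, 2.7 and 1.6 in control libraries, and PAX2 never passed 0.6. Of the 17 proximal tubule and epithelial markers 10 reached 1 in at least 3 libraries. VIM, a mesenchymal marker, had 1333.7, 1228.5 and 1376.5 in DHA and 1512.5, 1596.8 and 1517.5 in control libraries. The endocytic receptor LRP2 was listed at 0 in all 6, and CUBN, AQP1, ANPEP, VIL1 and SLC34A1 never passed 0.9, so defining markers of the mature proximal tubule were low or listed at 0. The summed leukocyte markers lay between 0.7 and 1.4 in DHA libraries and 1.0 and 1.3 in control libraries, the endothelial ones at most at 0.1 in DHA and 0.3 in control libraries, and the erythroid ones between 1.9 and 3.6 in DHA and between 1.4 and 1.9 in control libraries.

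At 60 ug/ml 1488 genes (8.87%) were higher and 1686 (10.1%) lower than in control, and 84 (0.501%) and 138 (0.823%) moved by at least 1 on the log2 scale. The median SE over all genes was 0.139. As a description, since these libraries also chose the genes, the higher genes had medians in the 3 DHA libraries of 0.488, 0.387 and 0.494 above the control mean, and the lower genes medians of -0.558, -0.476 and -0.573. With all libraries scaled to equal totals the median over all genes was 0.136 in place of -0.028 and the split became 2778 higher and 657 lower, so each direction below is relative to the deposited scaling.

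The DHA libraries 1 and 2 carried a trend with base composition. In the decile of genes with the lowest transcript GC content (21.1 to 39.5%), the median difference from the control mean was -0.208, -0.156 and -0.008 in the 3 DHA libraries, against 0, -0.077 and 0.079 in the control libraries. In the decile with the highest GC content (61.8 to 85.7%) it was 0.277, 0.173 and 0.062 in DHA libraries, against 0, 0.060 and -0.050 in control libraries. The third DHA library thus lay nearly flat, and control libraries 2 and 3 tilted in opposite directions. Calls followed the trend: 1.13% of the GC-poorest genes were higher and 14.6% lower, and 22.3% of the GC-richest were higher and 2.38% lower. With each library's GC trend subtracted these shares became 3.28 and 8.64%, and 8.82 and 8.76%, and 1170 (6.98%) and 1515 (9.03%) genes were called.

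**Figure D1:**
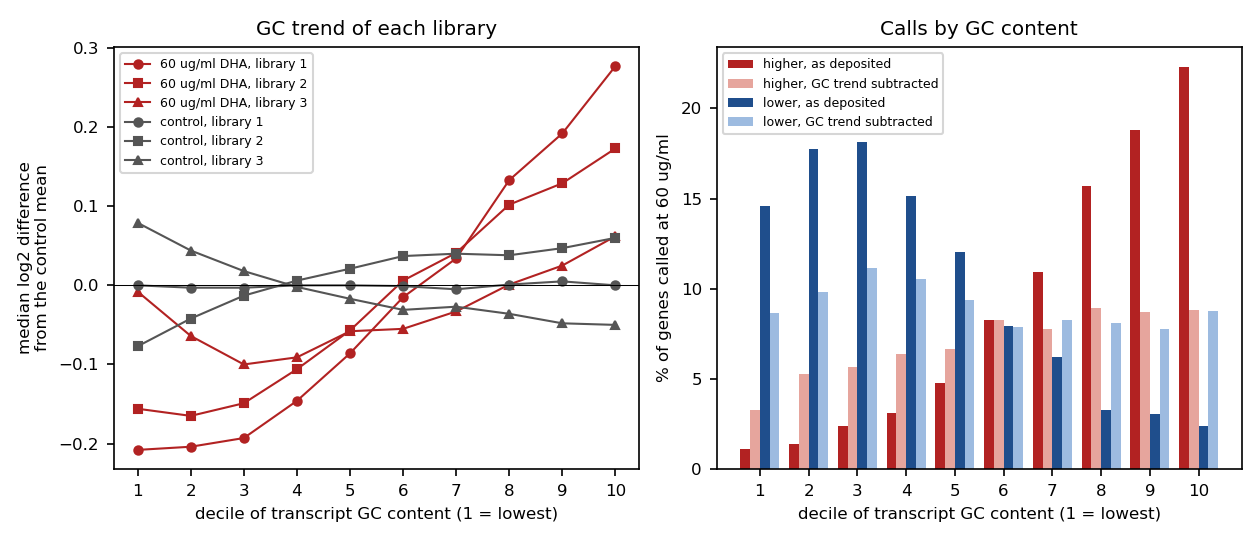
Left, median log2 difference from the control mean (y axis) over genes in each decile of transcript GC content (x axis), for 3 DHA libraries (red) and 3 control libraries (grey). Right, percentage of genes in each decile called higher (red) and lower (blue) at 60 ug/ml, as deposited (dark) and with the GC trend subtracted (pale); the dark bars tilt from 1.13% to 22.3% for higher genes, and the pale bars run from 3.28% to 8.82%.

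The third DHA library also stood apart from its group over single genes. The SD over 6119 genes with a mean signal of at least 20 over all 12 libraries of its difference from the other two was 0.263, against 0.177 and 0.192 for libraries 1 and 2, and 0.145 to 0.175 in control. PLA1A, a secreted phospholipase, had 26, 36.1 and 11.4 in DHA libraries and 56, 62.2 and 47.1 in control libraries. C3, the central complement component, had 66.9, 59.5 and 28.1 in DHA and 83, 78.9 and 62.1 in control libraries, and F3, tissue factor, had 29.5, 16.7 and 51.4 in DHA and 20.3, 17.6 and 23.1 in control libraries. These genes were picked for the size of the difference of library 3 from its group, so that difference is no separate evidence. Their means at 120 ug/ml were 8.37 ± 1.3 for PLA1A, 33.8 ± 6.9 for C3 and 59 ± 9.96 for F3 (SD, n = 3). Without that library 1194 genes (7.12%) were higher and 1302 (7.76%) lower. Genes called 3 ways, as deposited, with the GC trend subtracted and without the third library, numbered 762 higher (4.54%) and 944 lower (5.63%), and the leading genes below come from these.

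The 14 coding genes with the largest rises, among those called 3 ways at a mean of at least 5, included several of growth factor signalling. DUSP6, a phosphatase that switches off ERK (chr12:89347232-89353271, minus strand of GRCh38), had 23, 22 and 28.5 in DHA libraries and 8.8, 8.5 and 6.6 in control libraries. Its log2 fold change was 1.51 (SE 0.12, limma adjusted p = 1.24e-04). FOSL1, an AP-1 subunit whose gene answers to sustained ERK activity, had 95.5, 69.7 and 108 in DHA libraries and 30.2, 27.8 and 27.2 in control libraries (1.63, SE 0.13). The lowest DHA value of each gene was more than the highest control value, as it was for all 14. Of the 16774 genes tested, 2717 had every DHA library above every control library, and 3416 had every DHA library below. The called genes named here and below were picked on these same libraries, so groups that lie apart are no separate evidence. PHLDA1, a pleckstrin-homology protein induced by growth factors, had 88.2, 77.4 and 98.1 in DHA libraries and 32.5, 33 and 24.6 in control libraries (1.52, SE 0.12). HMGA2, a chromatin protein of embryonic and transformed cells (chr12:65824131-65966295, plus strand), had 165, 118 and 215 in DHA libraries and 64.1, 54.7 and 50.6 in control libraries (1.5, SE 0.17). For HMGA2 the third DHA library was highest and the second lowest, and the same order held for CCND1, CSF2, SLC7A5 and SLCO4A1.

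SIGLEC15, a sialic acid binding surface protein, had 10.1, 7.5 and 10.2 in DHA libraries and 2, 2 and 1.7 in control libraries (1.81). MYEOV, a gene near CCND1 on chromosome 11, had 11.1, 8.9 and 14.2 in DHA and 3.5, 1.8 and 2.6 in control libraries (1.78). ANGPTL4, a secreted inhibitor of lipoprotein lipase, had 57.6, 31.7 and 97.8 in DHA libraries and 18.5, 16.7 and 14.4 in control libraries (1.72, SE 0.29). The third DHA library was highest and the second lowest, and even the lowest was above every control library. FBXO32, a ubiquitin ligase subunit, had 134, 95.8 and 166 in DHA and 52.5, 42.1 and 39.4 in control libraries (1.52), and DUSP5, a nuclear ERK phosphatase, 68.1, 50.7 and 59.5 in DHA and 21.4, 18.1 and 14.5 in control libraries (1.68). CCND1, CSF2, SCEL, SLC7A5 and SLCO4A1 complete the 14, with log2 fold changes between 1.82 and 2.13.

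**Figure D2:**
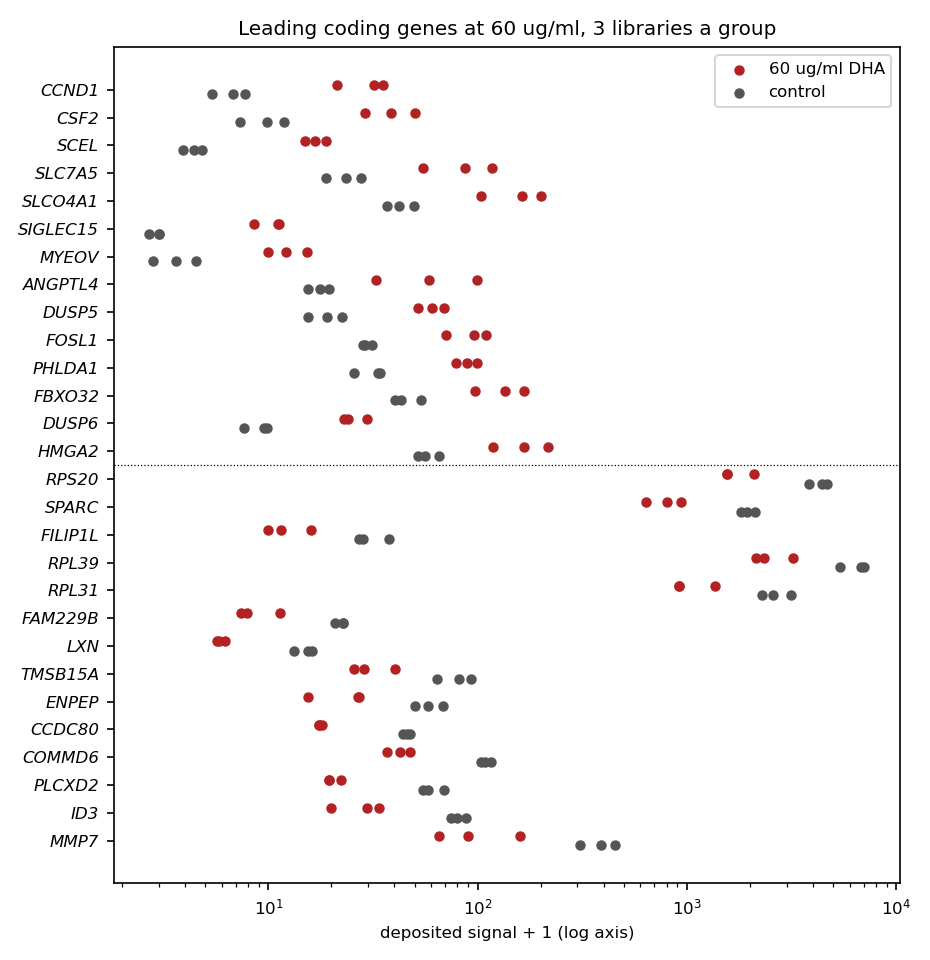
Deposited signal + 1 on a log axis (x) of the 14 highest and 14 lowest coding genes called 3 ways (rows, ordered by fold change), with 3 DHA libraries in red above 3 control libraries in grey. In each row the red and the grey points do not overlap, which is no separate evidence since these libraries also chose the genes. CCND1, for example, had 30.8, 20.2 and 34.2 in DHA libraries and 6.7, 5.8 and 4.4 in control libraries.

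The ERK output list, which holds cyclin D1, the negative feedback regulators and the ETV factors, had 16 of 22 tested members higher and 1 lower, against 8.87 and 10.1% of all genes. Its median was 0.82, against -0.03 for all genes, and the list medians of the single libraries were 0.841, 0.612 and 0.838 in DHA libraries and 0.053, 0.089 and -0.151 in control libraries. With the GC trend subtracted the count was unchanged, without the third library 15 rose and 1 fell, and with equal library totals 18 rose and 0 fell. Members named here beyond the 4 largest changes of a list were chosen with their values in view. ETV4, a transcription factor downstream of ERK, had 33.3, 32.2 and 34.4 in DHA libraries and 12.6, 12.4 and 9.3 in control libraries (1.48). SPRY4, an inhibitor of receptor signalling to RAS, had 4.2, 3.9 and 4.3 in DHA and 2, 1.5 and 0.9 in control libraries (1.08), with SPRY2 at 0.91 and SPRY1 at 0.78. DUSP1, a broader MAP kinase phosphatase and the lower member, had 45.3, 43.2 and 43 in DHA libraries and 55.8, 53.9 and 57 in control libraries (-0.34, limma adjusted p = 0.0122). On the deposited scaling DUSP5 and DUSP6 were thus higher and DUSP1 lower, while with equal library totals DUSP1 stood at -0.13 (limma adjusted p = 0.387) and did not pass.

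Among AP-1 and other early transcription factors 9 of 19 rose and none fell (median 0.39). NR4A1, an orphan nuclear receptor of the early response, had 5.7, 4.3 and 4.2 in DHA libraries and 1.1, 1 and 1.3 in control libraries (1.42, SE 0.13, limma adjusted p = 1.66e-04). FOSB had 4.7, 4.1 and 4.2 in DHA and 1.7, 1.4 and 1.4 in control libraries (1.09), and KLF2, a Krüppel-like factor, 4, 4.3 and 4.8 in DHA and 1.7, 2.2 and 1.9 in control libraries (0.87). These genes stood at low levels, where the value + 1 scale understates a change. MYC rose by 0.45 and FOS by 0.82. JUN (0.46), EGR1 (0.06), ATF3 (0.11), JUNB (-0.17) and FOSL2 (-0.17) did not pass the test.

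The EGF receptor ligands moved in different directions. EREG, epiregulin, had 41.4, 35.3 and 64.5 in DHA libraries and 20.9, 20.1 and 21.6 in control libraries (1.09, SE 0.17, limma adjusted p = 0.00196). TGFA had 49.4, 39.1 and 55.7 in DHA and 30.9, 29.6 and 25.1 in control libraries (0.72), whereas HBEGF had 27.2, 26.2 and 29.7 in DHA libraries and 46.8, 46.4 and 54.1 in control libraries (-0.80). Epiregulin and TGFA thus rose while HBEGF fell, with no overlap of the groups in any of them. The receptor EGFR had 39, 37.4 and 39.3 in DHA and 38.3, 37.9 and 38.5 in control libraries (0.01), and AREG had a log2 fold change of 0.17, and neither passed the test. The receptor inhibitor ERRFI1 rose by 0.63, a call not made without the third library (adjusted p = 0.0654). In the whole list 3 of 15 members rose and 2 fell.

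Among 16 tested cytokines and chemokines 2 rose (12.5%) and 4 fell (25%), against 8.87 and 10.1% of all genes. CSF2, which encodes GM-CSF, had 37.5, 27.9 and 49.2 in DHA libraries and 6.3, 8.8 and 10.9 in control libraries. IL11, a cytokine of the IL6 family tied to fibrosis, had 8.7, 7.8 and 7 in DHA libraries and 19.1, 18.8 and 19.9 in control libraries (-1.20, SE 0.12, limma adjusted p = 3.53e-04). The groups did not overlap in either gene, and they moved in opposite directions. CCL20, a chemokine for CCR6-bearing cells, had 5.8, 4.1 and 6.5 in DHA and 10.9, 11.2 and 13.4 in control libraries (-1.0). CCL2, the monocyte chemokine, had 3.1, 5.9 and 5.6 in DHA libraries and 7.1, 9.7 and 21.2 in control libraries (-1.12, adjusted p = 0.0476, and 0.0665 with the GC trend subtracted). Its control libraries ranged widely, with the third far above the others, and the highest DHA library lay just under the lowest control library. CXCL8 (-0.04), IL6 (0.17) and IL18 (-0.08) did not pass the test.

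Many amino acid supply genes rose. The list of amino acid transporters and targets of ATF4, the transcription factor of the integrated stress response, had 15 of 31 members higher and 2 lower (median 0.39), or 18 and 0 with equal library totals. SLC7A5, the light chain of the large neutral amino acid transporter, had 85.8, 53.8 and 116 in DHA libraries and 22.5, 17.8 and 26.6 in control libraries (1.84, SE 0.22). SLC6A9, a glycine transporter, had 8.9, 7.8 and 7.1 in DHA and 3.1, 1.7 and 3.2 in control libraries (1.31), and CHAC1, a glutathione-degrading enzyme, 15.6, 9 and 20.6 in DHA and 6.3, 5.4 and 7.5 in control libraries (1.06). The serine and glycine synthesis enzymes PHGDH (0.89), PSAT1 (0.66) and SHMT2 (0.69) rose with them, and asparagine synthetase ASNS rose by 0.75. The mRNA of ATF4 itself had 13.2, 12.2 and 9.5 in DHA libraries and 13.1, 11.3 and 10.9 in control libraries (-0.02, not past the test), and DDIT3, which encodes CHOP, fell by 0.26. SLC38A2, a small neutral amino acid transporter, also fell (-0.54). DDIT4, an inhibitor of mTORC1, had 147, 90.1 and 254 in DHA libraries and 90.6, 68.4 and 83.4 in control libraries (0.89, adjusted p = 0.0433, and 0.0942 without the third library). Among unfolded protein response genes 2 of 25 rose (8%) and 1 fell (4%), against 8.87 and 10.1% of all genes. With equal library totals 7 rose and 0 fell. The chaperone HSPA5 had a log2 fold change of 0.19 that did not pass on the deposited scaling.

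Of 20 cytosolic aminoacyl-tRNA synthetases, which load tRNAs with amino acids, 7 rose and none fell (median 0.19). YARS1 had 178, 149 and 185 in DHA libraries and 104, 97.1 and 104 in control libraries (0.73, SE 0.09), and AARS1 had 61, 51.2 and 50.9 in DHA and 36.5, 36.6 and 32 in control libraries (0.62). QARS1 (-0.36), RARS1 (-0.26) and KARS1 (-0.23) had values below 0 that did not pass the test. The list median of the third DHA library was 0.371, beside 0.117 and 0.005 in libraries 1 and 2.

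The list of genes that build ribosomes and the list of ribosomal protein genes went in opposite directions. Of 30 ribosome biogenesis genes 13 rose and none fell (median 0.39), while RBIS, a ribosome biogenesis factor outside that list, was lower (-0.92). NOP2, an rRNA methyltransferase, had 60.8, 51 and 67.8 in DHA libraries and 30, 38 and 30.6 in control libraries (0.84, SE 0.11, limma adjusted p = 9.28e-04). POLR1A, the largest subunit of RNA polymerase I, had 17.9, 19.2 and 25.6 in DHA and 11.8, 12.8 and 12 in control libraries (0.71), and TCOF1, treacle of the nucleolus, 37.3, 33.7 and 46 in DHA and 21.8, 22.3 and 25 in control libraries (0.73). NPM1, nucleophosmin, had 632, 619.6 and 835 in DHA libraries and 1120.3, 914 and 975 in control libraries (-0.54, adjusted p = 0.0558). The list median of the third DHA library, 0.646, was above the 0.262 and 0.242 of the other two, and without it 8 members rose and 1 fell.

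Of 79 cytosolic ribosomal protein genes 49 fell and none rose, with a median of -0.76, against -0.03 for all genes. The list medians were -0.797, -0.642 and -0.816 in DHA libraries and 0.089, 0.114 and -0.206 in control libraries. RPL31 (chr2:101001715-101024032, plus strand) had 919, 1360.0 and 912 in DHA libraries and 2574, 3131 and 2289 in control libraries (-1.34, SE 0.26, limma adjusted p = 0.00552). RPL39 had 2325, 3231 and 2133 in DHA and 7024, 6796 and 5363 in control libraries (-1.33), RPL34 609, 796 and 614 in DHA and 1861, 1713 and 1369.9 in control libraries (-1.29), and RPS20 1559, 2102 and 1560.0 in DHA and 4658, 4423 and 3833 in control libraries (-1.32). In all 4 the groups lay apart, with the second DHA library the highest of its group. Without the third library 29 of the 79 fell, and with equal library totals 49 fell and the median was -0.55. Members such as RPL8 (-0.12), RPS2 (-0.19) and FAU (-0.19) did not pass the test. Ribosomal protein genes have many processed copies, so reads of a gene may be split among near-identical sequences, as may those of EEF1A1 and TPT1 below.

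These mRNAs are short, with a median of 681 bases, and length moved with the fold change over all coding genes. In the shortest decile of coding genes (192 to 1023 bases) 3.46% were higher and 20.3% lower with a median of -0.20, and in the longest (5063 to 27174 bases) 10.6% and 5.66% with a median of 0.03. With each library's length trend subtracted 45 of the 79 ribosomal protein genes were lower and their median was -0.69.

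**Figure D3:**
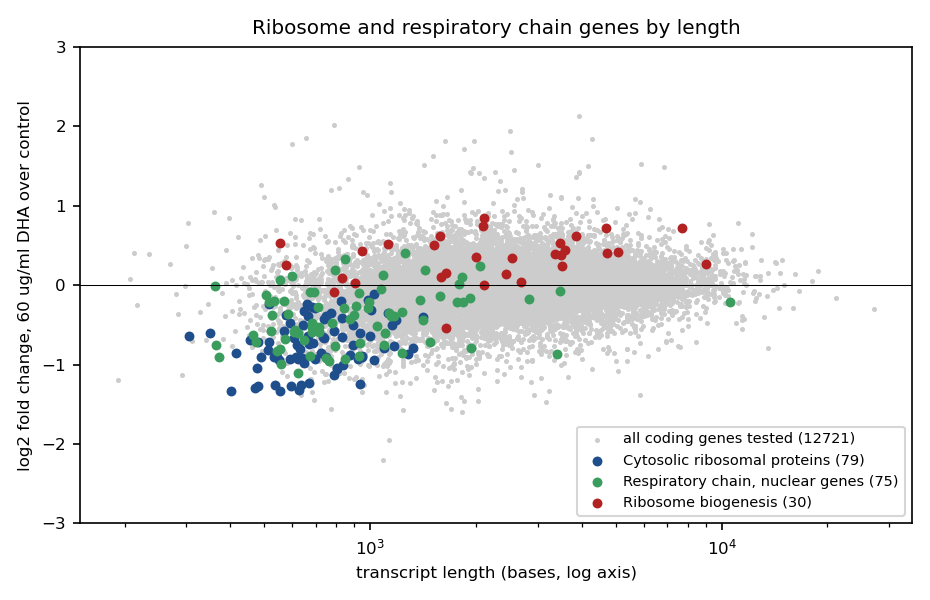
Log2 fold change of DHA over control (y axis) against transcript length in bases (x axis, log scale) for 12721 coding genes (grey), with 79 ribosomal protein genes in blue, 75 nuclear respiratory chain genes in green and 30 ribosome biogenesis genes in red. The blue points sit at short lengths with a median of -0.76 and the red ones have a median of 0.39.

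The transcript starts of some of these genes show what the ribosomal protein class shares in sequence. Such mRNAs are known to begin with a C followed by an unbroken run of pyrimidines, the terminal oligopyrimidine (TOP) motif, through which mTORC1 and LARP1 act on their translation and stability. Start windows from RefSeq (GRCh38.p14) are shown for 4 ribosomal proteins and 2 translation factors that fell and for 3 genes that rose. These genes were picked by hand as examples, and counts over all genes follow the windows. Each window runs from 10 bases before the annotated start to base 20 of the transcript, with a pyrimidine run that begins with C at the start in capitals.
RPL31 (chr2:101002279-101002308, plus strand): ccttcgcgctCTTCCTTTCCaacttggacg
RPL39 (chrX:119791611-119791640, minus strand): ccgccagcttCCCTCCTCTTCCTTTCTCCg
RPL34 (chr4:108620566-108620595, plus strand): cttttttcttCCTCTTCCggggacgttgtc
RPS23 (chr5:82278335-82278364, minus strand): cggtgcttctCTCTTTCgctcaggcccgtg
TPT1 (chr13:45341164-45341193, minus strand): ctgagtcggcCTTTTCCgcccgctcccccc
EEF1A1 (chr6:73521013-73521042, minus strand): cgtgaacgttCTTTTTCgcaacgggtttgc
CSF2 (chr5:132073779-132073808, plus strand): cagtgagcccagtacacagagagaaaggct
SLC7A5 (chr16:87869488-87869517, minus strand): ggggttcctgacgcagctgcgggcggcggg
DUSP6 (chr12:89352482-89352511, minus strand): cgctgtttgtatccattgaggagctgcctc

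A start with C and at least 4 further pyrimidines was found in 561 of 10269 tested coding genes with a RefSeq promoter (5.5%) and in 43 of 63 ribosomal protein genes (68.3%). Of genes lower by at least 1 on the log2 scale 16 of 72 had it (22.2%), and of those higher by at least 1, 1 of 37 (2.7%). Of all genes called lower 101 of 1274 had it (7.9%), and of all called higher 48 of 1115 (4.3%). With ribosomal protein genes left out, 77 of 1236 lower genes had it (6.2%). Among translation factors 10 of 25 had it (40%), and among ribosome biogenesis genes 4 of 24 (16.7%). Within the ribosomal protein genes 24 of 43 with the motif were lower (median -0.77), and 14 of 20 without it (median -0.70). Of the 518 other genes with the motif 14.9% were lower and 9.3% higher (median -0.09), beside 12% and 11% of the 9688 with neither property (median -0.03). Annotated starts can lie some bases off the start used in a cell, so a missing run says only that these letters are not at that position.

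Among 34 translation factors 2 rose and 9 fell, with a median of -0.13, while with equal library totals 6 rose and 5 fell and the median was 0.08. TPT1, a translationally controlled protein with a pyrimidine start (above), had 1159.8, 1398 and 1113 in DHA libraries and 3236, 3103 and 2469.8 in control libraries (-1.26, SE 0.19, limma adjusted p = 0.00161). EEF1A1, the elongation factor that delivers tRNA, had 2568, 2586 and 2649 in DHA and 5606, 4605 and 4088 in control libraries (-0.86). EEF1B2 fell by 0.83 and EIF3H, an initiation factor subunit, by 0.73, while the cap-complex scaffold EIF4G1 rose by 0.53, a call not made with the GC trend subtracted. Of the noncoding genes that host snoRNAs, several of which belong to the TOP class, 3 of 19 fell and none rose, although the list's median was 0.13: ZFAS1 had 195, 211 and 196 in DHA libraries and 392, 394 and 283 in control libraries (-0.81), SNHG29 fell by 0.74 and SNHG6 by 0.69, and GAS5 (0.27) did not pass the test.

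The 14 coding genes with the largest falls called 3 ways at a mean of at least 5 were MMP7, ID3, PLCXD2, COMMD6, ENPEP, CCDC80, TMSB15A, FAM229B, LXN, RPL31, RPL39, FILIP1L, SPARC and RPS20. MMP7, the metalloproteinase matrilysin, led them and had 88.5, 158 and 64.6 in DHA libraries and 308, 388 and 449.9 in control libraries (-1.95, SE 0.33). The DHA libraries differed among themselves, the second being highest, and all lay below the control libraries. The plasminogen activators moved the other way: PLAU, urokinase, had 759, 641 and 701 in DHA libraries and 323, 324 and 275 in control libraries (1.19, SE 0.11, limma adjusted p = 2.53e-04), and PLAT, the tissue activator, had 10.3, 5.5 and 12.8 in DHA and 3.1, 4.4 and 2.8 in control libraries (1.20). The urokinase receptor PLAUR rose by 0.61. Among 19 matrix proteases and inhibitors 4 rose and 4 fell.

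Both MMP7 and EMP1, an epithelial membrane protein that rose, carry AP-1 letters upstream, although they moved in opposite directions. EMP1 had 5.4, 4.9 and 5.1 in DHA libraries and 2, 1 and 1.3 in control libraries (1.35). The 250 bases before each RefSeq start (GRCh38.p14) are shown with the AP-1 letters TGANTCA, which read the same on both strands, in capitals.
EMP1 (chr12:13196476-13196725, plus strand): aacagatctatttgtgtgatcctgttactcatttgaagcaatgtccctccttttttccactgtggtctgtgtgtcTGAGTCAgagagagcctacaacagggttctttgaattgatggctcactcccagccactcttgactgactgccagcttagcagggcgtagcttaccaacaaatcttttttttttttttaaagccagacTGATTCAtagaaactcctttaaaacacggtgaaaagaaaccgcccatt
MMP7 (chr11:102530748-102530997, minus strand): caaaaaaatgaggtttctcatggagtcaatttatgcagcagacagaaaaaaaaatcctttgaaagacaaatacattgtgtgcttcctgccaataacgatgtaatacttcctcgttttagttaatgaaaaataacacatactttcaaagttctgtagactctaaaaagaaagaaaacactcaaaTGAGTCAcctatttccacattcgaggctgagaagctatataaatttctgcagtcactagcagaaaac

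EMP1 holds the letters 175 and 48 bases before the start and MMP7 holds them 67 bases before it. In the 300 bases of the RefSeq promoters TGANTCA was found in 4.4% of 10269 tested coding genes. Of all genes called higher 51 of 1115 had it (4.6%), and of all called lower 55 of 1274 (4.3%), both near that share. It was found in 4 of 37 genes higher by at least 1 (10.8%) and in 5 of 72 lower by at least 1 (6.9%). The letters describe the sequence alone, and whether AP-1 was bound there was not measured.

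ID3, an inhibitor of bHLH factors and a direct target of BMP signalling, had 28.7, 32.6 and 18.9 in DHA libraries and 73.8, 86.7 and 78.7 in control libraries (-1.57, SE 0.22, limma adjusted p = 0.00111). ID2 had 23.6, 26.1 and 17.2 in DHA and 48.6, 45.9 and 42 in control libraries (-1.01), ID1 168, 187 and 136 in DHA and 272, 287 and 268 in control libraries (-0.76), and the target ATOH8 0.7, 1.7 and 0.5 in DHA and 4.3, 4.4 and 5.2 in control libraries (-1.56). In all of them the third DHA library was the lowest, and the groups did not overlap. In the BMP list 6 of 20 fell and 1, the ligand BMP2, rose by 0.38. Of the TGF-beta genes 4 of 17 rose and 5 fell. TGFB2 had 82, 87.4 and 90.2 in DHA libraries and 146, 137 and 173 in control libraries (-0.80, SE 0.08), TGFB3 had 3.1, 3.9 and 2.3 in DHA and 9.6, 7.1 and 8.8 in control libraries (-1.22), and the secreted target TGFBI 826, 758 and 559 in DHA and 1592, 1519 and 1245 in control libraries (-1.03). SMAD3, a signal transducer of the pathway, rose by 0.62, and TGFB1 (0.34) did not pass the test.

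Matrix genes fell in 12 of 31 cases and rose in 2 (median -0.34). Without the third DHA library 11 fell and 2 rose (median -0.17), and with equal library totals 8 fell and 4 rose (median -0.14). SPARC, a matrix-binding glycoprotein (chr5:151661096-151687165, minus strand), had 804, 941 and 639 in DHA libraries and 1821, 1947 and 2119 in control libraries (-1.32). COL4A1, a basement membrane collagen, had 382, 389.7 and 308 in DHA and 603, 619 and 663 in control libraries (-0.81), and EFEMP1, a fibulin, 37.4, 41.7 and 29.5 in DHA and 71, 70.3 and 64.1 in control libraries (-0.91). The third DHA library was lowest in each. LUM, the proteoglycan lumican, had 130.5, 153 and 83.9 in DHA libraries and 258, 225 and 196 in control libraries (-0.91), and its adjusted p was 0.0218, 0.0624 with the GC trend subtracted and 0.071 without the third library. CCDC80, a secreted matrix-associated protein, had 16.4, 16.4 and 17.1 in DHA libraries and 46.7, 44.9 and 42.9 in control libraries (-1.38), and the libraries of each group lay close together. FN1, fibronectin (-0.06), did not pass the test. The list medians were -0.130, -0.219 and -0.482 in DHA libraries and 0.049, 0.025 and -0.063 in control libraries. The 6 mesenchymal markers, of which COL1A2 was listed at 0 in all 6 libraries and VIM, the filament protein vimentin, made up nearly all of the sum, came to between 1243.7 and 1385.2 in DHA libraries and between 1535.6 and 1617.8 in control libraries, and their part in the matrix result was not tested.

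Contractile and mechanosensitive genes fell in 10 of 31 cases and rose in 2 (median -0.13), while with equal library totals 5 fell and 5 rose (median 0.08). CNN1, a smooth muscle calponin, had 1.8, 2.6 and 2.2 in DHA libraries and 5.1, 6 and 7.5 in control libraries (-1.16), CNN3 had 158, 173 and 187 in DHA and 282, 314 and 336 in control libraries (-0.84), and the YAP target ANKRD1 76.7, 82.5 and 83.3 in DHA and 129, 128 and 168 in control libraries (-0.79). TAGLN had 5.7, 8.7 and 7.4 in DHA libraries and 11.9, 12.3 and 25.4 in control libraries (-1.02), with an adjusted p of 0.0505 without the third DHA library. The cytoplasmic actins ACTB (0.15) and ACTG1 (0.00), and the YAP targets CCN1 (-0.19) and CCN2 (-0.49), did not pass the test. FILIP1L, which acts on filamins, had 10.5, 14.9 and 8.9 in DHA and 26.1, 27.2 and 36.7 in control libraries (-1.33), and LXN, latexin, an inhibitor of carboxypeptidases, 5.2, 4.8 and 4.7 in DHA and 14.5, 12.3 and 15.2 in control libraries (-1.34). TMSB15A, a thymosin that binds actin monomers, had 24.6, 39.2 and 27.5 in DHA and 62.9, 80.3 and 91.5 in control libraries (-1.34), and COMMD6, of the COMMD family that includes modulators of NF-kB, 35.7, 41.4 and 46.3 in DHA and 108, 115 and 103 in control libraries (-1.38). None of these groups overlapped.

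Among complement, interferon-stimulated and antigen presentation genes the largest called changes were falls. In the complement list 7 of 13 fell and none rose (median -0.59), and 4 fell without the third DHA library or with equal library totals. CFI, the protease that cleaves C3b, had 1.4, 4.8 and 2 in DHA libraries and 6.1, 10.1 and 10.1 in control libraries (-1.46, SE 0.29, limma adjusted p = 0.00592). C1S of the classical pathway had 6.4, 6.2 and 4.7 in DHA and 10.1, 12 and 11.6 in control libraries (-0.86), and CD59, which blocks the membrane attack complex, 204, 229 and 207 in DHA and 335, 339 and 340.3 in control libraries (-0.67). Of 31 interferon-stimulated genes 2 rose and 7 fell (median -0.29), while 0 rose and 5 fell without the third library, and 3 rose and 3 fell with equal library totals. GBP2, a guanylate-binding protein, had 1.2, 1.8 and 1.3 in DHA libraries and 4.7, 6.5 and 8.1 in control libraries (-1.59), and UBD, a ubiquitin-like modifier, 0.5, 0.9 and 0 in DHA and 3.7, 5.2 and 8.6 in control libraries (-2.21). ISG15 (-0.12), MX1 (0.10) and STAT2 (-0.39) did not pass the test. B2M, the light chain of class I antigen molecules, had 346, 392 and 341 in DHA libraries and 684, 768 and 687 in control libraries (-0.99, limma adjusted p = 0.0022). It was the 1 member of 11 antigen presentation genes to pass (9.09% lower, against 10.1% of all genes). The heavy chain HLA-B (-0.08) did not pass.

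Of 20 tested proximal tubule genes 9 fell and none rose (median -0.36). Without the third DHA library 7 fell and 0 rose (median -0.21), and with equal library totals 6 fell and 2 rose (median -0.16). ENPEP, aminopeptidase A, a brush border enzyme that cleaves angiotensin (chr4:110365733-110565285, plus strand), had 26.2, 25.9 and 14.4 in DHA libraries and 67.4, 57 and 48.9 in control libraries (-1.38, SE 0.22, limma adjusted p = 0.00225). MME, neprilysin, had 3.5, 2.4 and 1 in DHA and 6.5, 7.3 and 5.1 in control libraries (-1.21), AGT, angiotensinogen, 9.3, 11.1 and 5 in DHA and 15.5, 19.1 and 14.5 in control libraries (-0.93), and the endocytic adaptor DAB2 18.4, 15.6 and 10.1 in DHA and 25.4, 28.1 and 24.3 in control libraries (-0.81). The third DHA library was the lowest in all 4. The basolateral bicarbonate carrier SLC4A4 fell by 0.45, and GGT1 (0.05) did not pass the test. Another 20 genes of the list did not reach the minimum value for testing.

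Among tight junction and polarity genes 4 of 25 rose (16%) and 3 fell (12%), against 8.87 and 10.1% of all genes. Without the third DHA library 3 were higher and 0 lower. CLDN1, a sealing claudin, had 305, 292 and 354 in DHA libraries and 204, 198 and 219 in control libraries (0.61, SE 0.09, limma adjusted p = 0.00113). OCLN, occludin, had 1, 1.1 and 0.9 in DHA libraries and 0.8, 0.9 and 1.5 in control libraries (-0.03), and TJP1, ZO-1, had 15, 15.1 and 17.2 in DHA and 14.5, 15.3 and 19.1 in control libraries (-0.04), and neither passed the test. Of 20 adherens junction and desmosome genes 1 rose (5%) and 3 fell (15%). DSC3, a desmosomal cadherin, had 2.5, 2.5 and 2.7 in DHA and 4.5, 4.1 and 6 in control libraries (-0.70), whereas CDH6 (-0.25) and EPCAM (-0.28) fell as deposited but not with the GC trend subtracted. CDH2 (-0.27) and the catenin CTNNB1 (0.14) did not pass the test.

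Of 13 tested keratin and cornified envelope genes 4 rose and none fell (median 0.28). SCEL, sciellin, had 15.6, 13.9 and 17.9 in DHA libraries and 3.8, 2.9 and 3.4 in control libraries (1.94), and TGM2, a transglutaminase that crosslinks matrix and cytosolic proteins, 198, 156 and 187 in DHA and 99.2, 99.1 and 84.9 in control libraries (0.92). KRT18 had 181, 174 and 194 in DHA libraries and 133, 154 and 148 in control libraries (0.33), a call lost with the GC trend subtracted (adjusted p = 0.312). Integrins and laminins split: the laminin receptor chain ITGA3 had 846, 662 and 697 in DHA and 474, 450.5 and 399 in control libraries (0.73), LAMB3 77.5, 59.7 and 74.6 in DHA and 41.3, 42.4 and 40.9 in control libraries (0.74), and the linker PLEC 45.9, 37.7 and 38 in DHA and 25.1, 26.4 and 25 in control libraries (0.64), while ITGB6, a chain of the receptor that activates latent TGF-beta, had 9.1, 11.3 and 9.4 in DHA and 14.3, 16 and 18.5 in control libraries (-0.66). In that list 4 of 23 rose and 4 fell, ITGB1 among the lower ones (-0.48).

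**Figure D4:**
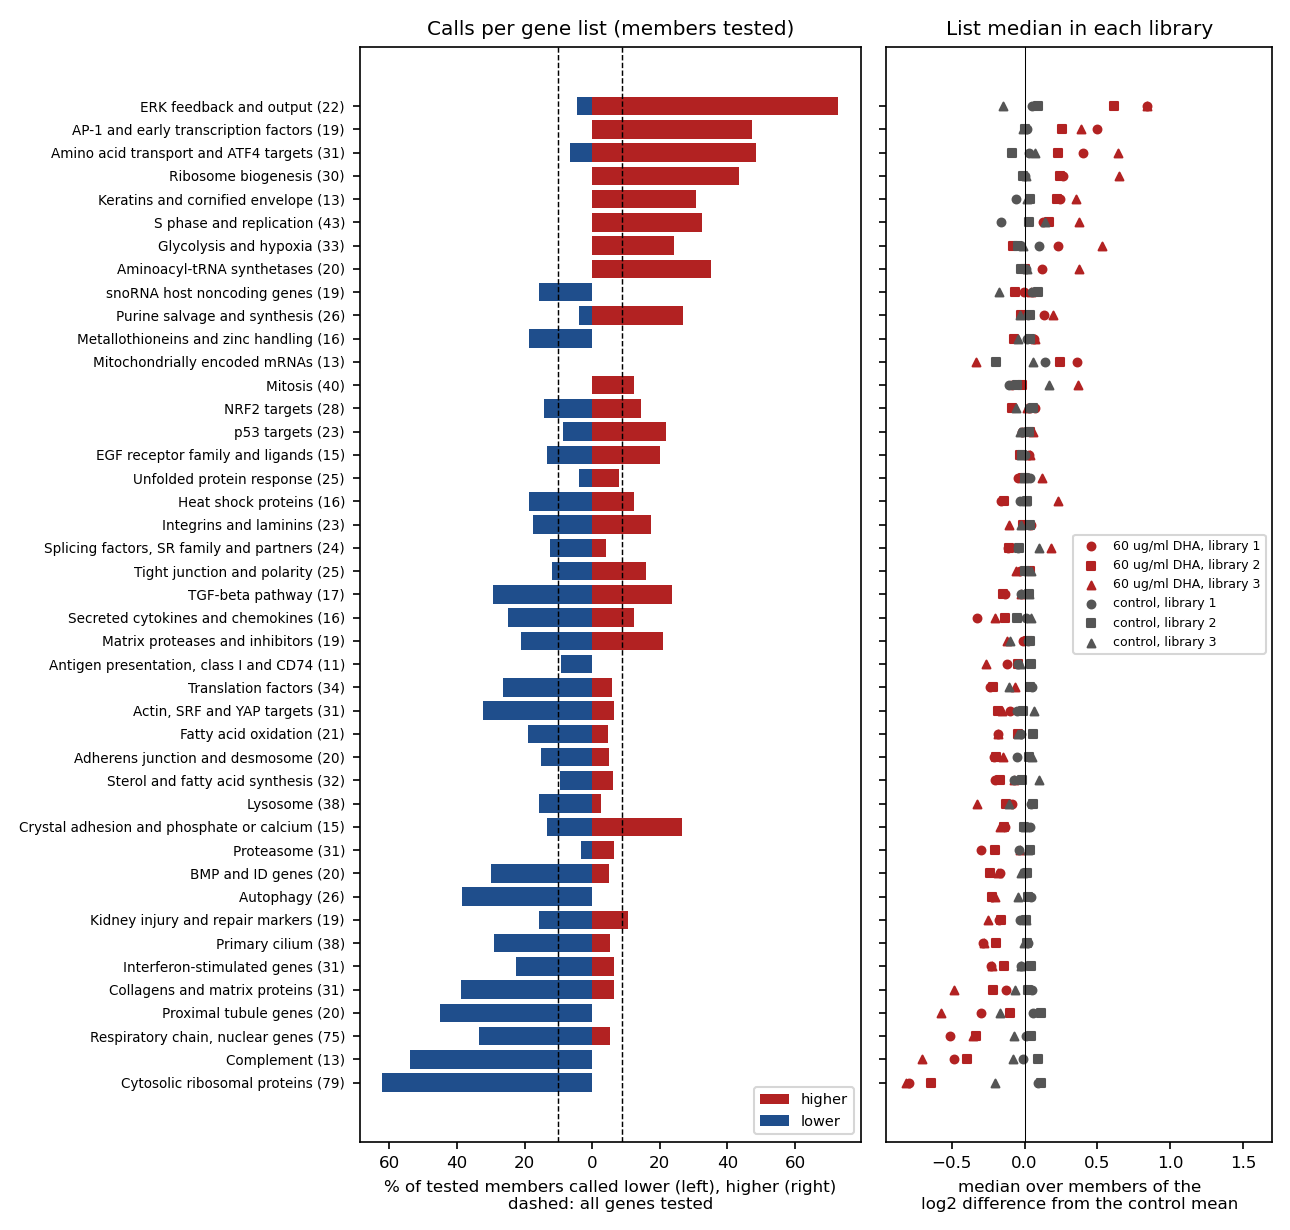
Left, percentage of tested members of each of 43 gene lists (rows, members tested in brackets) called lower (blue, to the left) and higher (red, to the right) at 60 ug/ml, with dashed lines at the 10.1 and 8.87% of all genes. Right, the median over members of the log2 difference from the control mean in each DHA library (red) and control library (grey); ERK output lies highest at 0.841, 0.612 and 0.838 in DHA libraries and ribosomal proteins lowest at -0.797, -0.642 and -0.816.

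Nuclear genes of the respiratory chain fell in 25 of 75 cases and rose in 4 (median -0.38), and without the third DHA library in 14 and 2. With equal library totals 19 fell and 8 rose, and the median was -0.18. COX7C, a subunit of cytochrome c oxidase, had 336, 442 and 364 in DHA libraries and 905, 806 and 736 in control libraries (-1.10, SE 0.23, limma adjusted p = 0.00779). COX7B had 62.5, 67.1 and 71.4 in DHA and 131, 135 and 136 in control libraries (-0.99), NDUFA1 of complex I 235, 331 and 254 in DHA and 516, 556 and 509.7 in control libraries (-0.96), and UQCRB of complex III 128, 142 and 142 in DHA and 263, 277 and 251 in control libraries (-0.94). The groups lay apart in all 4. Longer members such as NDUFS1 (-0.17) and ATP5F1A (-0.16) did not pass, and the list's median length was 844 bases. With the length trend subtracted 20 fell and 3 rose. Of the 13 mRNAs encoded by mitochondrial DNA 0 passed the limma test, and 0 had an unadjusted p under 0.05. Their medians were 0.358, 0.244 and -0.335 in DHA libraries and 0.139, -0.193 and 0.058 in control libraries.

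Autophagy genes fell in 10 of 26 cases and none rose (median -0.22), and with equal library totals in 6 while 3 rose. OPTN, an autophagy receptor, had 40.7, 34 and 37.4 in DHA libraries and 60.2, 63.2 and 60.8 in control libraries (-0.71, SE 0.09, limma adjusted p = 9.19e-04). WIPI1, which binds forming autophagosomes, had 21.6, 19.8 and 13.7 in DHA and 37.4, 29.3 and 26.8 in control libraries (-0.74), and GABARAPL1, of the ATG8 family, 129, 130.0 and 86.6 in DHA and 234, 205 and 166 in control libraries (-0.82), with an adjusted p of 0.0548 without the third library. The receptor SQSTM1 (0.07) and MAP1LC3B (-0.14) did not pass the test. Of 38 lysosomal genes 1 rose (2.63%) and 6 fell (15.8%), against 8.87 and 10.1% of all genes. With equal totals 3 rose and 3 fell and the median of -0.18 became 0.03. NPC2, which carries cholesterol in the lysosome, had 563, 601 and 452 in DHA and 942, 948 and 867 in control libraries (-0.78), while its partner NPC1 rose by 0.37, and the protease CTSS had 6.2, 7.8 and 4.3 in DHA and 15, 11 and 10.2 in control libraries (-0.89). Primary cilium genes fell in 11 of 38 cases and rose in 2, or in 3 and 3 with equal totals, led by the transport particle genes IFT20 (21.7, 26.8 and 20.1 in DHA libraries and 39.6, 47.9 and 36.6 in control libraries) and IFT52 (33.5, 37.8 and 34.1 in DHA and 60.8, 63.7 and 60.9 in control libraries), and by ARL3 (-0.59).

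Cell cycle genes rose in part. In the S phase list 14 of 43 rose and none fell, with 10 higher after the GC trend was subtracted and 8 without the third DHA library. UHRF1, which maintains DNA methylation in replication, had 33, 21.8 and 31.1 in DHA libraries and 10.1, 13.8 and 14 in control libraries (1.11, SE 0.23, limma adjusted p = 0.00782), and the transcription factor E2F1 had 41.8, 40.8 and 45.3 in DHA and 24.2, 28.3 and 31.7 in control libraries (0.59). RRM2 had 104, 102 and 118 in DHA libraries and 53.1, 74.9 and 95.4 in control libraries (0.57, adjusted p = 0.095 without the third library), and its control libraries ranged widely. PCNA (-0.15) and CCNE1 (0.23) did not pass. Of 40 mitosis genes 5 rose (12.5%, against 8.87% of all genes) and none fell. The mitosis list medians were -0.088, -0.02 and 0.364 in DHA libraries and -0.107, -0.049 and 0.169 in control libraries, which overlap. Without the third DHA library 4 rose and the median over members was -0.048. PLK1, a mitotic kinase, had 87.8, 76.3 and 107 in DHA and 51.7, 53 and 62.7 in control libraries (0.68), while MKI67 (0.45) and CDK1 (0.06) did not pass. The S phase list medians were 0.129, 0.170 and 0.377 in DHA libraries and -0.162, 0.029 and 0.143 in control libraries, which overlap. Among p53 target genes 5 of 23 rose and 2 fell: GDF15, a stress-induced secreted factor, had 211, 195 and 172 in DHA libraries and 99.5, 108 and 86.1 in control libraries (0.97), TP53INP1 had 11.5, 12.8 and 8.3 in DHA and 19.5, 20.5 and 20.1 in control libraries (-0.85), and CDKN1A (0.18) did not pass.

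Glycolysis and hypoxia genes rose in 8 of 33 cases, in 5 with the GC trend subtracted, and in 4 with 1 lower without the third library. HK2, a hexokinase, had 34.1, 25.2 and 43.8 in DHA libraries and 17.5, 14.4 and 14.3 in control libraries (1.08, SE 0.15), and VEGFA 83.7, 60.2 and 88.9 in DHA and 48.8, 35.7 and 38 in control libraries (0.90). The list medians were 0.228, -0.079 and 0.530 in DHA libraries and 0.099, -0.044 and -0.010 in control libraries. LDHA (-0.06), GAPDH (-0.07) and CA9 (0.26) did not pass the test. TXNIP, which restrains glucose uptake, had 67.6, 70.5 and 80.7 in DHA libraries and 146, 156 and 123 in control libraries (-0.95, SE 0.10). FASN, fatty acid synthase, had 56.7, 56.6 and 68.4 in DHA and 35.1, 35.5 and 39.4 in control libraries (0.71). In the sterol and fatty acid list 2 of 32 rose (6.25%) and 3 fell (9.38%), against 8.87 and 10.1% of all genes. Of fatty acid oxidation genes 1 of 21 rose and 4 fell, CPT1A having 6.7, 7.8 and 7.5 in DHA and 4, 5.5 and 4.5 in control libraries (0.56) and DECR1 58.5, 73.3 and 59.6 in DHA and 102, 114 and 109 in control libraries (-0.76).

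Genes that handle purines and crystals bear on the agent itself. Of 26 purine genes 7 rose and 1 fell. NT5E, CD73, which makes adenosine outside the cell, had 16.2, 11.9 and 20 in DHA libraries and 9, 6.3 and 5 in control libraries (1.14, SE 0.19, limma adjusted p = 0.00248), and the adenosine receptor ADORA2B had 7.3, 6.1 and 9.5 in DHA and 5.2, 3.2 and 4.1 in control libraries (0.74). APRT, which salvages adenine, had 139, 131 and 143 in DHA libraries and 125, 132 and 117 in control libraries (0.15), and XDH, which makes DHA from adenine, had 0.6, 0.6 and 0.3 in DHA and 0.8, 0.6 and 0.7 in control libraries (-0.19); neither passed the test. In the crystal adhesion and mineral list 4 of 15 rose and 2 fell, beside a median of -0.19 that was 0.01 with equal library totals. HAS3, a hyaluronan synthase, had 140.3, 137 and 137 in DHA libraries and 76.3, 79.1 and 65.8 in control libraries (0.90, SE 0.08, limma adjusted p = 1.31e-04), and its receptor CD44 had 220.2, 153 and 231 in DHA and 151, 118 and 114 in control libraries (0.64). CYP24A1, the vitamin D hydroxylase, had 20.5, 23.4 and 16.8 in DHA and 37.4, 43.9 and 51.8 in control libraries (-1.09), and the phosphate carrier SLC20A1 102, 82.1 and 113 in DHA and 60.7, 59.6 and 56 in control libraries (0.73). The annexins ANXA1 (-0.57), ANXA2 (-0.36) and ANXA5 (-0.31), and osteopontin, SPP1 (-0.12), did not pass.

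Of 19 injury and repair genes 2 rose (10.5%) and 3 fell (15.8%), against 8.87 and 10.1% of all genes, with which the list counts below are also to be compared. SOX9, a transcription factor of tubule repair, had 4.3, 3.5 and 7.2 in DHA libraries and 1.1, 1.1 and 1.3 in control libraries (1.42, SE 0.17, limma adjusted p = 6.84e-04). HAVCR1, which encodes the injury marker KIM-1, had 166, 188 and 120.3 in DHA libraries and 266, 248 and 227 in control libraries (-0.66), with an adjusted p of 0.0176, and 0.0521 without the third library. LCN2, another injury marker, had 3.9, 5.7 and 2.2 in DHA and 4.9, 7.1 and 7.9 in control libraries (-0.67) and did not pass. Of 28 NRF2 targets 4 rose and 4 fell (14.3% each way). OSGIN1 had 18.6, 15.1 and 13.7 in DHA and 9.6, 7 and 7.6 in control libraries (0.89), while NQO1 (0.21) and HMOX1 (0.26) did not pass. Among 16 heat shock genes 2 rose (12.5%) and 3 fell (18.8%), with CRYAB at 55.8, 58.4 and 39.2 in DHA libraries and 87.3, 80.7 and 77 in control libraries (-0.68). Metallothionein and zinc genes had 0 higher and 3 lower of 16 beside a median of 0.08, MT1F, whose near relatives may share its reads, having 196, 212 and 119 in DHA and 385, 374 and 338 in control libraries (-1.10, adjusted p = 0.0752 without the third library). The proteasome list had 2 of 31 higher (6.45%) and 1 lower (3.23%). The splicing list had 1 of 24 higher (4.17%) and 3 lower (12.5%), CLK1 at -0.40 among them. With equal library totals 2778 of all 16774 genes tested were higher and 657 lower, so higher members were more common there over all genes too. The list counts became 4 higher and 0 lower for the proteasome and for splicing, 6 and 0 for tight junctions, 5 and 1 for integrins and laminins, 3 and 1 for fatty acid oxidation and metallothioneins, 5 and 0 for the sterol list and 4 and 1 for injury and repair. On that scaling they were 8 and 2 for NRF2 targets, 6 and 2 for matrix proteases, 4 and 3 for snoRNA hosts, 3 and 3 for cytokines, 2 and 1 for adherens junctions, 2 and 4 for BMP and ID genes, 4 and 1 for the EGF receptor list and 12 and 0 for purine genes, and the lists with no lower member reached 22 for S phase, 14 for glycolysis, 11 for tRNA synthetases, 9 for mitosis and 7 for keratins. Without the third DHA library 4 NRF2 targets were higher and 1 lower, the count was 1 and 1 for fatty acid oxidation and for injury and repair, and it was 0 and 2 for the proteasome. With the GC trend subtracted 4 were higher and 1 lower for NRF2 targets and tight junctions, 2 and 1 for keratins, 1 and 1 for splicing and 0 and 0 for the proteasome. Where limma called no member of a list in a direction, an unadjusted p under 0.05 in that direction was found for 0 complement, ribosomal protein, autophagy, glycolysis and S phase genes, for 1 early transcription factor, keratin, tRNA synthetase, ribosome biogenesis and proximal tubule gene each, for 2 antigen presentation and 2 metallothionein genes, and for 3 mitosis and 3 snoRNA host genes.

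Of 2347 long noncoding genes 42 were higher (1.79%) and 106 lower (4.52%), both under the 8.87 and 10.1% of all genes. LHFPL3-AS2 had 9.5, 11.7 and 10.9 in DHA libraries and 3.5, 4.7 and 5 in control libraries (1.12), and DDIT4-AS1, antisense to DDIT4, 34.5, 26.8 and 33.8 in DHA and 14.3, 19.1 and 10.8 in control libraries (1.08). LINC01111 had 9.1, 9 and 7.3 in DHA libraries and 21.4, 22.4 and 20.7 in control libraries (-1.25), HIF1A-AS3 had 7.5, 4.7 and 5.9 in DHA and 18, 12.1 and 14.5 in control libraries (-1.18), and PGR-AS1 10.7, 8.1 and 8.2 in DHA and 20.9, 18.1 and 21.2 in control libraries (-1.08). No source used here gives the strand setting of the quantification, so reads of an antisense gene and its partner may not be told apart.

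Without summing, 1029 of 61128 transcripts (1.68%) were higher and 1068 (1.75%) lower. Of retained-intron transcripts 84 of 9130 were higher and 50 lower, and of transcripts marked for nonsense-mediated decay 27 of 3933 and 46. In 6 genes, SLC35B1, CRLS1, CCAR2, RPL35A, VMP1 and SQOR, 1 transcript was higher and another lower at a group mean of at least 5. In each of the 6 pairs at least 1 of these calls was lost without the third DHA library, and those of CCAR2-201, RPL35A-212 and VMP1-209 were also lost with the GC trend subtracted. The largest gap was in SLC35B1, an ATP carrier of the endoplasmic reticulum (chr17:49700934-49709014, minus strand), whose gene sum hardly moved at 72.5, 73.8 and 77.9 in DHA libraries and 82.3, 77.3 and 80.5 in control libraries (-0.10). Its transcript SLC35B1-220 (ENST00000649906.1, 1611 bases) had 16.7, 20.6 and 16.3 in DHA libraries and 3.7, 0.5 and 1.7 in control libraries (2.81, SE 0.63, limma adjusted p = 0.0375). SLC35B1-201 (ENST00000240333.12, 1850 bases) had 0.4, 1.6 and 1.9 in DHA libraries and 16.6, 20.2 and 18.5 in control libraries (-3.14, SE 0.71, limma adjusted p = 0.0392). The pair thus changed places at 60 ug/ml, but at 120 ug/ml the values were 4.3, 0 and 2.4 for SLC35B1-220 and 13.6, 14.9 and 16.2 for SLC35B1-201, near those of control, and at 240 ug/ml both ranged widely (4.9, 8.2 and 21.2, and 16.4, 5.1 and 0.2). Without the third DHA library the adjusted p-values were 0.0952 and 0.0860. For SQOR, a mitochondrial sulfide oxidase, SQOR-201 had 52.0, 55.1 and 56.8 in DHA libraries and 41.0, 39.1 and 36.6 in control libraries, and SQOR-208 had 34.8, 42.6 and 24.3 in DHA libraries and 63.2, 70.4 and 51.7 in control libraries, with limma adjusted p-values of 0.0946 and 0.0882 without the third library. For CRLS1, cardiolipin synthase, CRLS1-201 had 59.3, 61.6 and 64.1 in DHA libraries and 44.8, 44.6 and 37.3 in control libraries, and CRLS1-202 had 0, 0.6 and 0 in DHA libraries and 4.6, 4.6 and 7.7 in control libraries, with limma adjusted p-values of 0.0526 and 0.0176 without the third library. Splitting reads among overlapping isoforms carries an error that the deposited values do not show.

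Because 60 lies midway between 0 and 120 ug/ml, each gene was also tested against a midpoint of its control and 120 ug/ml levels. That midpoint is their mean on the log2(value + 1) scale, so the test is not one of a straight line in the deposited signal. In limma 1 gene (0.00596%) was above that midpoint and 2 (0.0119%) were below it, while 2779 had an unadjusted p under 0.05 in limma, and with library weights 336 were above and 325 below. TSGA10, a testis and centrosome gene, had 10.7, 10 and 11.5 in control libraries, 4.6, 4.4 and 4.6 with 60 ug/ml DHA and 8.3, 7.6 and 7.8 with 120 ug/ml DHA, so that it was lowest at 60 ug/ml. RBIS, a ribosome biogenesis factor, had 94.2, 91.5 and 91 in control libraries, 48.3, 50.4 and 46.5 with 60 ug/ml DHA and 55.1, 55 and 59.3 with 120 ug/ml DHA. Its midpoint call was not made with the GC trend subtracted. MIR1302-5, a short gene of a family with near-identical copies and so of uncertain assignment, was listed at 0 in control, had 10, 5.5 and 7.7 at 60 ug/ml and was listed at 0 at 120 ug/ml.

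Levels of 4 leading genes are given by dose as mean ± SD (n = 3 each). CCND1 had 5.63 ± 1.16 in control, 28.4 ± 7.3 at 60, 56.8 ± 5.72 at 120 and 66.6 ± 5.14 at 240 ug/ml. HMGA2 had 56.5 ± 6.92, 166 ± 48.6, 292 ± 22.1 and 327 ± 17.1 in the same order. Both stood higher at each further dose, though the values within 1 SD of the mean overlapped between 120 and 240 ug/ml. CCDC80 had 44.8 ± 1.9 in control and 16.6 ± 0.404, 16.2 ± 2.36 and 15.8 ± 4.71 at the 3 doses, and RPL31 had 2665 ± 428, 1064 ± 257, 907 ± 228 and 841 ± 259. In CCDC80 and RPL31 the means of the 3 doses differed by less than the SD at 240 ug/ml and all lay under control, and the doses share their control libraries.

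**Figure D5:**
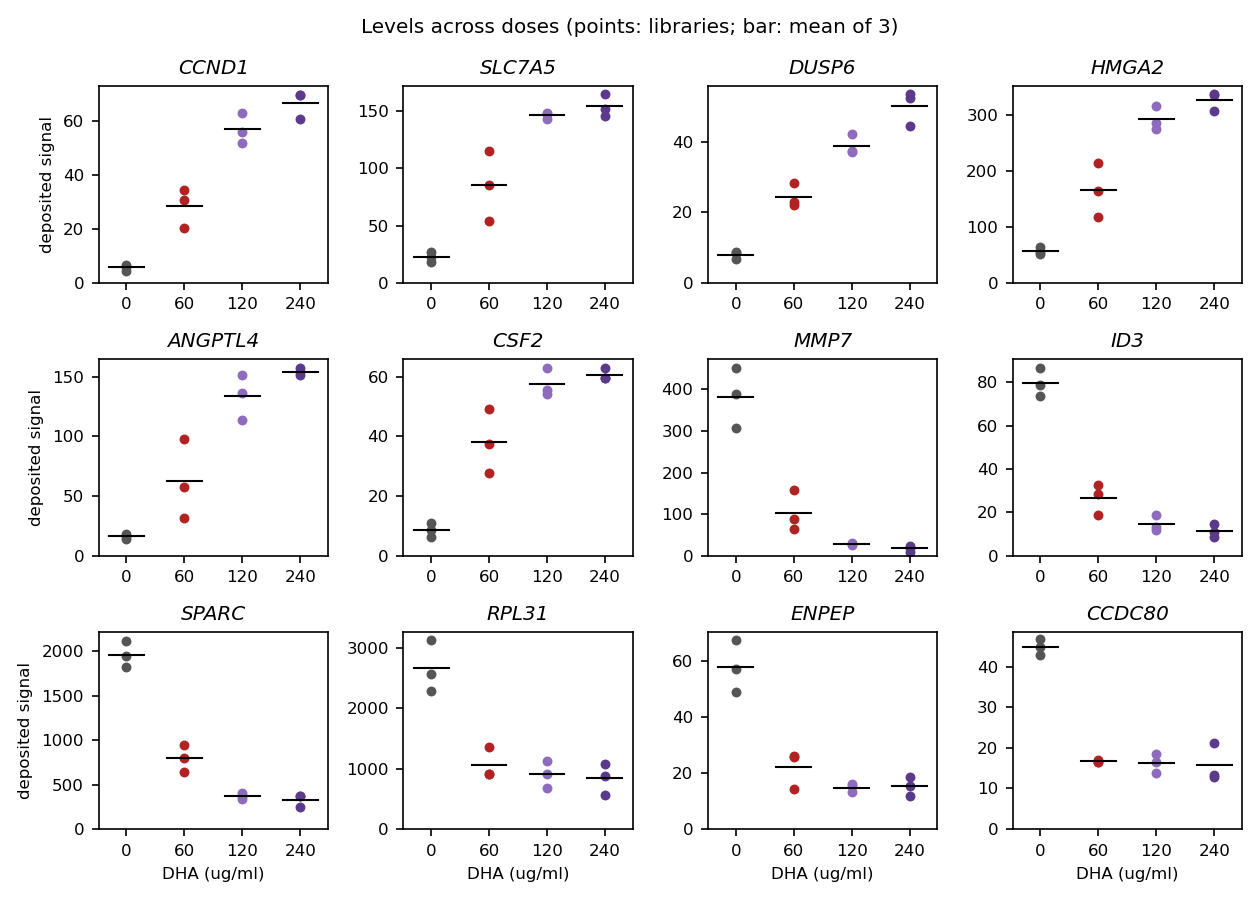
Deposited signal (y axis) of 12 leading genes in 3 libraries each at 0 (control), 60, 120 and 240 ug/ml DHA (x axis); points are libraries and bars their mean. At 60 ug/ml, in red, MMP7 had 88.5, 158 and 64.6 and CCDC80 16.4, 16.4 and 17.1, CCDC80 near the level of the higher doses.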

How the data were processed

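Per the labels' protocols, TRI Reagent gave the RNA, which was selected with oligo(dT), copied with random primers and dUTP, and read paired-end on a DNBSEQ instrument. The authors deposited 1 table of a normalized signal for 267165 Ensembl transcripts in 12 libraries, with no counts, so that depth and counting error are unknown. GRCh38.p14 is the build in the submitters' processing notes, while aligner, quantifier and annotation were not given in the sources used here. Transcripts were matched without version to GENCODE on GRCh38 (202246, 75.7%) and summed to 57473 genes, which held 93.7 to 94.6% of each library's total. Genes or transcripts at 1 or more in at least 3 libraries were kept. With limma 3.58.1 in R 4.3.3 a model with 4 group means was fitted to log2(value + 1) of all 12 libraries, with a trended prior and two-sided Benjamini-Hochberg adjusted p-values, called at 0.05. The GC trend of each library, a spline with 5 degrees of freedom, was subtracted in an alternative fit. Groups were taken from the sample titles. Same-numbered libraries of both groups deviated together for number 3 only (r over 0.1), which is short of pairing them. Named are the 14 highest and 14 lowest coding genes called 3 ways at a mean of at least 5, the 4 largest called members of each of 43 lists, 4 long noncoding genes in each direction, genes with transcripts called both ways, those that set library 3 apart and the midpoint genes; some that the rule names are not reported here. Others were chosen after their values were seen, and members and lists were chosen with earlier results of these data known. Alternatives changed the pseudocount, filter, scaling, GC and length trends, libraries, weights and replicate block. On data simulated for 60 ug/ml against control over 16774 genes, the fit found 52% of log2 changes of 0.5, 100% of 1, 98% of 2 and 100% of 3, with 15 false calls. The simulated noise was independent, with no GC trend and no library set apart, and changes were planted only in genes above a set control level. These shares therefore need not hold for the deposited libraries.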

Additional observations from a re-analysis of the deposited data

How the results depend on the processing

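Of the named genes called on the deposited values, none changed direction under pseudocounts, filters, scalings, GC and length trends, library weights, the replicate block or single libraries left out. Over all called genes the direction was checked with the GC trend subtracted, without the third DHA library and with both, and held except that 1482 of the 1488 higher genes kept their sign with both. The genes higher at 60 ug/ml numbered 2778 and the genes lower at 60 ug/ml 657 with equal library totals, 592 and 714 without the third DHA library after GC subtraction, and 915 to 1304 and 967 to 1451 with 1 library left out. The transcripts higher at 60 ug/ml numbered 416 with no filter, 1563 at a minimum of 5, 2128 with equal totals, 680 with the GC trend and 604 with the GC and length trends subtracted, 320 with only the compared libraries fitted, 198 without the third DHA library after GC subtraction and 250 to 783 with 1 library left out. The transcripts lower at 60 ug/ml numbered 455 with no filter, 521 with equal totals, 699 with the GC trend subtracted, 156 without the third DHA library after GC subtraction and 250 to 716 with 1 library left out. The genes above the control-120 midpoint at 60 ug/ml numbered 8 at a minimum of 5, 2 with equal totals, 5 after quantile normalization, 5 with the length trend subtracted, 336 with library weights and 1 to 2 with 1 library left out. The genes below the control-120 midpoint at 60 ug/ml numbered 4 with no filter, 6 at a minimum of 5, 6 after quantile normalization, 1 with the GC trend, 5 with the length trend and 1 with both subtracted, 325 with library weights, 1 without the third DHA library after GC subtraction and 2 to 3 with 1 library left out. The cause of these shifts was not tested. With the replicate block 1843 genes were higher and 2137 lower, 64 were above and 56 below the midpoint, and 1 was below it with block and GC subtraction; same-numbered DHA and control libraries deviated with r of 0.044, 0.053 and 0.155, so not every pair passed 0.1, and the first DHA library correlated more with the second control library (0.070) than with the first. The third DHA library did deviate with the third libraries at 120 (0.228) and 240 ug/ml (0.141). Collapsing transcripts with identical values, chosen after seeing the data, gave 973 higher and 1033 lower. For the named genes 3659 values across alternatives kept direction and side of the threshold, 396 lost the call, 14 gained it and 18 of genes that did not pass the test changed sign. Without counts no detection limit can be given, and low values carry an unknown counting error.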

Other observations

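Of the 126 small nucleolar RNA genes tested 9 were higher at 60 ug/ml (7.14%) and 0 lower, and of 218 microRNA genes 7 were higher (3.21%) and 1 lower, against 8.87% higher and 10.1% lower of all genes, so neither higher share exceeded that of all genes. These short RNAs lack a poly(A) tail and were measured in libraries selected with oligo(dT). Of 9130 transcripts annotated as retained introns 0.92% were higher and 0.548% lower, beside 0.587% and 1.09% of 6989 processed transcripts without a reading frame. Over all 61128 transcripts 1.68% were higher and 1.75% lower, so both classes were called less often in each direction. Their median signals were low, at 1.675 and 1.683, against 3.658 for protein-coding transcripts.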
